A study of Homo sapiens with 3 samples.

Results

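The genes described here build the contacts between epithelial cells or mark the switch away from the epithelial state. They were chosen by symbol: the cadherins (CDH), claudins (CLDN), zonula occludens proteins (TJP), desmocollins (DSC), desmogleins (DSG) and connexins (GJA, GJB, GJC) followed by a number, and 14 further names (DSP, OCLN, EPCAM, ESRP1, ESRP2, GRHL2, CRB3, MARVELD2, MARVELD3, VIM, ZEB1, ZEB2, SNAI1 and SNAI2). Of 88 protein-coding RefSeq symbols that match, 49 had a named probe set on the array, out of 14884 named genes. The set was uneven. All 24 claudins, all 7 desmosomal cadherins and all 14 further names were measured, but only 2 of 23 cadherins (CDH23 and CDH26) and 0 of 17 connexins had a named probe set, so CDH1 (E-cadherin), CDH2 (N-cadherin), CDH3 and GJA1 were not analysed here. The data are thus mainly about tight junctions, desmosomes and regulators of the epithelial-mesenchymal transition (EMT), and hardly about cadherins.

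The cells were A549, an established human lung cancer line. They were transfected with siNC (the control siRNA), siTAZ (against TAZ, gene WWTR1) or siYAP (against YAP, gene YAP1), all with a lipid reagent, and total RNA was taken after 48 h. TAZ and YAP are related transcriptional co-activators of the Hippo pathway, and the series asked which genes each of them regulates in this line. Each group was 1 array, so no value has an error, no difference was tested, and every difference below is between 2 single cultures.

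Tight junctions seal the space between epithelial cells. Claudins form their strands, occludin and the MARVEL-domain proteins sit in the same strands, and zonula occludens proteins tie them to actin. Desmosomes join the keratin filaments of neighbouring cells through desmocollins and desmogleins, which desmoplakin (DSP) anchors. In EMT, the repressors ZEB1, ZEB2, SNAI1 and SNAI2 bind E-box sequences and lower epithelial genes, while the intermediate filament vimentin (VIM) is a mesenchymal marker. ESRP1 and ESRP2 are epithelial splicing factors, and GRHL2 is an epithelial transcription factor. The Hippo pathway is known to take signals from cell contacts.

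Each level is an RMA value (log2) of 1 probe set per gene. A gene was kept when its mean over the 3 arrays reached 4.27, the median of the 53617 probe sets. This kept 35 of the 49 genes, and 10768 genes in all. The 14 dim members were DSC1, DSG1, DSG3, DSG4, ESRP1 and 9 claudins (CLDN6, CLDN8, CLDN10, CLDN16, CLDN17, CLDN20, CLDN22, CLDN24 and CLDN34). Their differences from siNC ran from -0.12 to 0 in both knockdowns. The array medians were 4.26 to 4.28. The siRNA targets were lower in their own arrays, YAP1 by 2.99-fold and WWTR1 by 1.61-fold. YAP1 also differed by -0.21 in the siTAZ array, while WWTR1 differed by 0 in the siYAP array. Of 10 markers of the line, all 6 with a named probe set were kept (KRT7, KRT8, KRT18, KRT19, EPCAM and TFF1). Of 5 named endothelial markers 3 were below the filter, with VWF and CLDN5 above it.

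No kept member differed by 1.5-fold between any 2 arrays. In siTAZ against siNC, 0 of 35 were at least 1.5-fold lower and 0 higher, where 1.02% and 0.762% of all kept genes were. In siYAP against siNC the counts were again 0 and 0, against 0.381% and 0.52%. At these shares fewer than 1 gene in 35 would pass, so a count of 0 is near the background. At 1.2-fold (0.26 on the log2 scale), siTAZ gave 2 lower and 2 higher members, each 5.71% of 35, beside 4.89% and 5.62% of all kept genes. The siYAP array also had 2 lower and 2 higher, beside 3.15% and 4.05%. The same 4 genes made up both counts: CLDN1 and DSC2 were lower, MARVELD3 and VIM higher. Both comparisons use the same control array, so an unusual control value would appear in both.

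CLDN1 encodes claudin-1, a sealing claudin of the tight junction. Its level was 8.98 with siNC, 8.66 with siTAZ and 8.48 with siYAP. The control was highest and the siYAP array lowest, which made CLDN1 1.25-fold lower with siTAZ (a difference of -0.32) and 1.42-fold lower with siYAP (-0.51). From the lowest difference upwards it ranked 400 among the 10768 kept genes for siTAZ and 67 for siYAP. DSC2, a desmocollin of the desmosome, had the same order of arrays. It was at 7.44 with siNC, 7.16 with siTAZ and 7.03 with siYAP, 1.21-fold and 1.33-fold lower than the control. Its ranks were 500 and 135. The siTAZ difference of DSC2, -0.27, lay just past 1.2-fold.

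MARVELD3, a MARVEL-domain protein of the tight junction, was at 4.75 with siNC and at 5.19 with both knockdowns. It was 1.36-fold higher in each, from a dim control level that leaves the fold uncertain, and its values in the siTAZ and siYAP arrays were identical. VIM was at 6.84 with siNC and at 7.16 with both knockdowns, again with identical knockdown values, which was 1.26-fold higher. VIM was the one member with more than 1 probe set. All 3 of its probe sets were higher in both knockdowns, with differences of 0.33, 0.47 and 0.17 for siTAZ and 0.33, 0.47 and 0.24 for siYAP. Among markers of other cell types, the fibroblast gene LUM was higher in both knockdowns, as VIM was. The fibroblast list had 3 of 7 genes named and 2 kept, and its summed linear level was 217 with siNC, 320.0 with siTAZ and 313.8 with siYAP. LUM differed by 0.69 and 0.66, THY1 by -0.16 in both, and DCN was below the filter. In the leukocyte list 2 of 6 genes were named and 1 kept, CD68, which was 0.57 and 0.59 higher, with LYZ below the filter. The summed level of the list was 359, 526 and 531. The part of these markers in the VIM difference was not tested. Of the named genes of the fibroblast and leukocyte lists, LUM and CD68 were the ones higher. In the endothelial list PECAM1, below the filter, was 0.30 higher with siTAZ and 0.21 higher with siYAP. TIE1, also below it, differed by -0.0050 with siTAZ alone, and CLDN5, KDR and VWF were identical on the 3 arrays. In bulk RNA, more cells of a kind and more RNA per cell cannot be told apart.

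**Figure D1:**
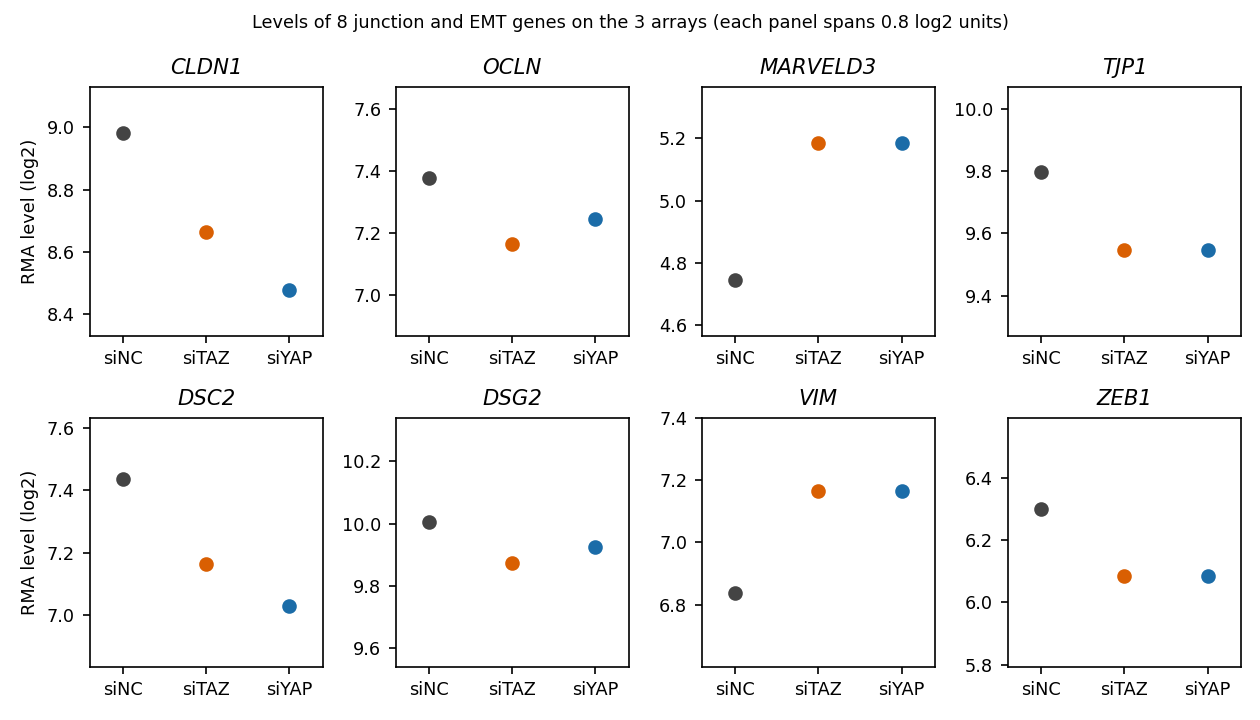
RMA level (log2, vertical axis) of 8 junction and EMT genes on the siNC, siTAZ and siYAP arrays, 1 point per array and no replicates. Each panel spans 0.8 log2 units around its own gene, so distances but not heights can be compared between panels. CLDN1 and DSC2 are highest in the control and lowest with siYAP, TJP1 and ZEB1 sit at nearly the same lower level in both knockdowns, and VIM and MARVELD3 at an identical higher level in both.

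Promoter sequence is shown for 6 of these genes because both knockdowns differed from the control for each of them, and because ZEB1 encodes an E-box repressor. Each stretch holds the 250 bases before the transcription start, 5′ to 3′ on the gene's strand, from the RefSeq promoter table of build GRCh38.p14. Capitals mark CAGGTG or CACCTG, the E-box that ZEB and SNAI proteins bind. CLDN1 and VIM had no such match in the window, and DSC2, TJP1, OCLN and ZEB1 had 1 each.
CLDN1, chr3:190322447-190322696 (minus strand): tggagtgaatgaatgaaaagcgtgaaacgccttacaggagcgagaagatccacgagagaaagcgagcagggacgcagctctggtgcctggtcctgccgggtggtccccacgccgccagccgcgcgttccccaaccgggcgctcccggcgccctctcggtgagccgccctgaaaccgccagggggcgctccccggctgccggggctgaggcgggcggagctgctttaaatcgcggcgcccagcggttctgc
DSC2, chr18:31102422-31102671 (minus strand): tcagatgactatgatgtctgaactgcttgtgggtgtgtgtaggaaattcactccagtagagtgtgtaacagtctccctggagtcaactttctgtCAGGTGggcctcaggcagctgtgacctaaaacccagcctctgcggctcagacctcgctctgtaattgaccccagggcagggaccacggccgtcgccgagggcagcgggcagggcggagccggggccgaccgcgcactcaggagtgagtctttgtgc
TJP1, chr15:29969050-29969299 (minus strand): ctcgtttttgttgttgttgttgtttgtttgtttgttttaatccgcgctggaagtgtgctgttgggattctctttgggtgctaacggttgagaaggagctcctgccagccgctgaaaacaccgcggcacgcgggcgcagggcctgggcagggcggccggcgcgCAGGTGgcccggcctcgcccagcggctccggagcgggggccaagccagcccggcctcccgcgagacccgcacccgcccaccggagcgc
OCLN, chr5:69492297-69492546 (plus strand): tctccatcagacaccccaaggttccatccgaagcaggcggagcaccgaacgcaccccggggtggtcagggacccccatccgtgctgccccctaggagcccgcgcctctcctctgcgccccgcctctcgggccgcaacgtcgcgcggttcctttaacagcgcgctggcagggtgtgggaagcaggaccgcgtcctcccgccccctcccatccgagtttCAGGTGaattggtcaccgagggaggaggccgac
ZEB1, chr10:31318167-31318416 (plus strand): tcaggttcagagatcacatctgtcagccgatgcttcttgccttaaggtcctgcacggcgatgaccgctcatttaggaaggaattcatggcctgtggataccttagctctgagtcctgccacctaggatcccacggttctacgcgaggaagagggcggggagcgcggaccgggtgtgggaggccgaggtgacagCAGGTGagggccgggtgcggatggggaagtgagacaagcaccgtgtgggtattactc
VIM, chr10:17227991-17228240 (plus strand): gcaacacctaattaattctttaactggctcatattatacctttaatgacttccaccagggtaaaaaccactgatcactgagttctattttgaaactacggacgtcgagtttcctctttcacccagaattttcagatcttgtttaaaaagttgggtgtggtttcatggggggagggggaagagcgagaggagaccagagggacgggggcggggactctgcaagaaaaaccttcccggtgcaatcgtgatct

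The table held a promoter for 36 of the 49 members, and the first listed start of each gene was used. Windows ran from 250 bases before to 50 after the start, and both strands were searched. The E-box CACCTG, with its reverse complement, was in 12 of the 36 member windows (33.3%) and in 20.6% of 27305 promoters of all genes. Among kept members it was in 10 of 25 windows (40.0%). The first base of the match lay 156 bases before the start in DSC2, 88 in TJP1, 57 in ZEB1 and 33 in OCLN. Of the 9 kept members lower in both knockdowns by any amount (DSP at only -0.014 in both), 8 had a promoter entry. Of these 8, 6 held the E-box (DSC2, DSG2, DSP, OCLN, TJP1 and ZEB1). Of the 4 higher in both, 3 had an entry and 1 held it: CRB3, with 5 matches. Of the 18 with identical values on the 3 arrays, 12 had an entry and 3 held it. The TEAD core GGAATG, the sequence of the factors that carry YAP and TAZ to DNA, was in 3 of 36 member windows (8.33%). It was in 3 of 25 windows of kept members (12.0%), against 14.0% of all promoters, and in none of the printed stretches. The ZEB1 window held 1 match that runs across the start and so past the printed end. The AP-1 site TGANTCA was in 4 of 36 (11.1%), against 7.76%, and does not overlap the E-box. These are matches of letters in a short window, grouped by values already seen, and no factor's binding was measured.

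**Figure D2:**
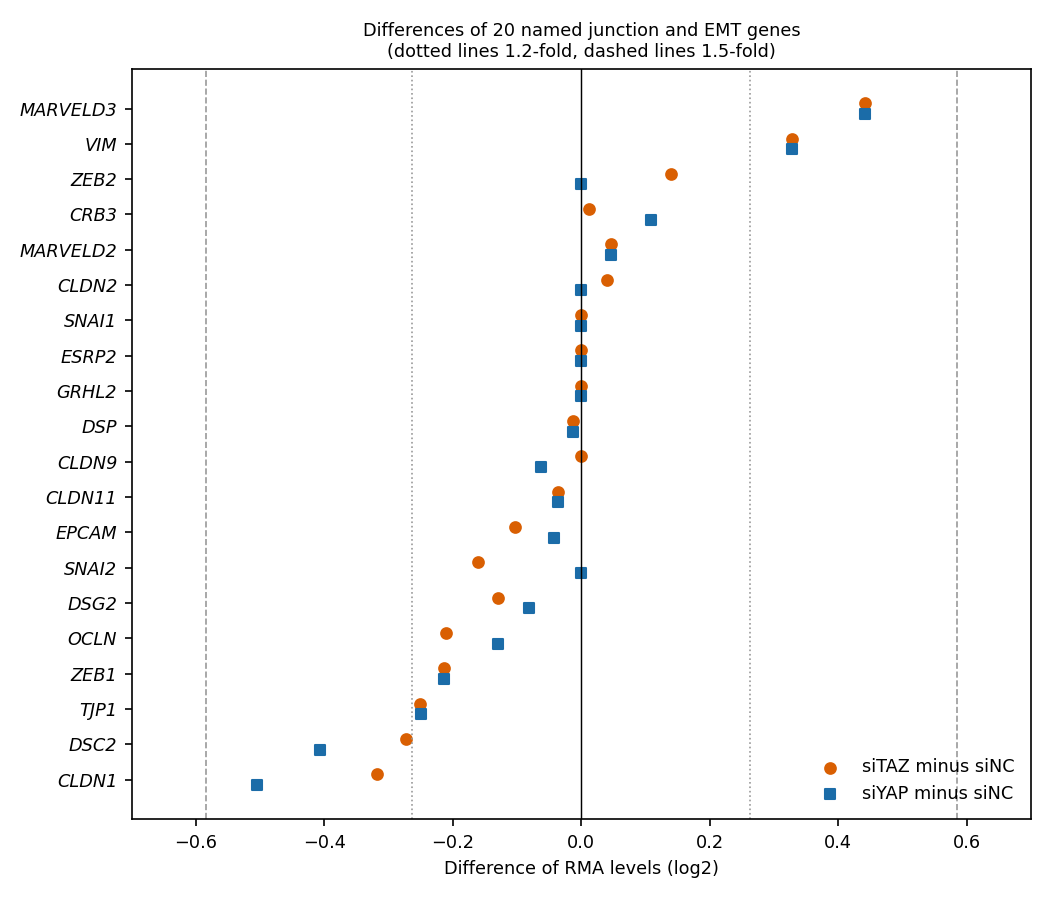
Difference of RMA levels from siNC (log2, horizontal axis) for 20 named junction and EMT genes, with siTAZ as circles and siYAP as squares, 1 array each and no error. The dotted lines are 1.2-fold and the dashed lines 1.5-fold. No point reaches a dashed line, and CLDN1, DSC2, VIM and MARVELD3 pass a dotted line in both comparisons.

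Among the kept claudins, CLDN1 was the one at 1.2-fold. Of 15 kept claudins, 11 (73.3%) had identical values on the 3 arrays, against 41.1% of all kept genes and 56.9% of those below the median level of kept genes. The 14 other than CLDN1 had differences of -0.036 to 0.040 with siTAZ and -0.062 to 0 with siYAP. The identical ones included CLDN3 (6.70), CLDN4 (4.67) and CLDN7 (5.89), which are common claudins of simple epithelia, and CLDN18 (4.83), a claudin of stomach and lung. CLDN5, a claudin of endothelium, was identical at 5.33, and the others (CLDN12, CLDN14, CLDN15, CLDN19, CLDN23 and CLDN25) at 4.72 to 6.17. CLDN2, which forms a cation channel, was at 6.60 with siNC and siYAP and at 6.64 with siTAZ. CLDN9 differed by -0.062 with siYAP, and CLDN11 by -0.036 in both. CLDN16, the gene next to CLDN1 in the RefSeq order of protein-coding genes, was below the filter at 3.60 with siNC and 3.48 in both knockdowns. Of the other dim claudins CLDN24 differed by -0.11 with siTAZ, CLDN6 by -0.095 with siYAP and CLDN8 by -0.050 with siYAP, and the rest kept their control value on both arrays.

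The remaining tight junction members differed by less than 1.2-fold. TJP1, the scaffold ZO-1, was at 9.80 with siNC, 9.55 with siTAZ and 9.55 with siYAP. It was 1.19-fold lower in both, just short of 1.2-fold, and ranked 557 and 378 from the lowest difference. With a new quantile normalization it differed by -0.26 in both and passed 1.2-fold, which made 3 lower members in place of 2. OCLN, which encodes occludin, was at 7.38 with siNC, 7.17 with siTAZ and 7.25 with siYAP. The control was again highest, and OCLN was 1.16-fold and 1.09-fold lower. Its neighbour MARVELD2, which encodes tricellulin, was 0.046 higher in both knockdowns. TJP3, the scaffold ZO-3, was identical on the 3 arrays at 7.56. CRB3, an apical polarity protein, was at 6.77, 6.78 and 6.88. RefSeq lists pseudogenes of OCLN, TJP1, CRB3 and VIM and an antisense gene of VIM, and whether the probes share their signal was not tested.

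In the desmosome, 4 of 8 genes were kept, and their median difference was -0.072 with siTAZ and -0.047 with siYAP. DSG2, the desmoglein found in all desmosome-bearing tissues, was at 10.0 with siNC, 9.88 with siTAZ and 9.92 with siYAP. It was 1.09-fold and 1.06-fold lower. DSP was at 9.00 with siNC and 8.98 in both knockdowns, a difference of -0.014 for the anchor protein. DSC3 was identical on the 3 arrays at 5.13. The 7 desmosomal cadherin genes lie side by side on chromosome 18 in the order DSC3, DSC2, DSC1, DSG1, DSG4, DSG3 and DSG2, with no other protein-coding gene between them in RefSeq. Within this row DSC2 and DSG2 were the 2 whose kept probe sets differed between arrays, while DSC1, DSG1, DSG4 and DSG3 were dim.

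EPCAM, an epithelial adhesion molecule, was at 8.23 with siNC, 8.13 with siTAZ and 8.19 with siYAP, or 1.07-fold and 1.03-fold lower. GRHL2 (4.43) and ESRP2 (5.17) were identical on all 3 arrays, and ESRP1 was dim at 3.80. GRHL2 lay just above the filter. CDH23 and CDH26, the cadherins with a named probe set, were identical on the 3 arrays at 4.61 and 4.59. CDH23 is known as a link between the stereocilia of hair cells.

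The EMT repressors did not share a direction. ZEB1 was at 6.30 with siNC and at 6.09 with both knockdowns, 1.16-fold lower and with identical knockdown values. It ranked 702 from the lowest difference for siTAZ and 489 for siYAP. ZEB2 was at 4.83 with siNC and siYAP and at 4.97 with siTAZ. SNAI2, also called Slug, was at 5.49 with siNC and siYAP and at 5.33 with siTAZ. SNAI1 was identical at 5.47. Thus ZEB2 (0.14) was higher and SNAI2 (-0.16) lower in the siTAZ array alone, and both had their control value in the siYAP array.

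Counted by direction, 10 of 35 kept members (28.6%) were lower by any amount with siTAZ and 6 (17.1%) higher, against 21.7% and 29.7% of all kept genes. With siYAP, 10 (28.6%) were lower and 4 (11.4%) higher, against 21.7% and 27.0%. The median difference was 0 in both, for members and for all kept genes. Identical values were common: 18 of 35 members (51.4%) and 41.1% of all kept genes had the same value on all 3 arrays, to the last decimal deposited. An identical value means that the summary over probes gave 1 number, not that the probe signals were the same. It depended on level. Of the 13 members at or above 6.22, the median level of kept genes, 2 were identical (15.4%, against 25.3% of all such genes). Of the 22 below it, 16 were identical (72.7%, against 56.9%).

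**Figure D3:**
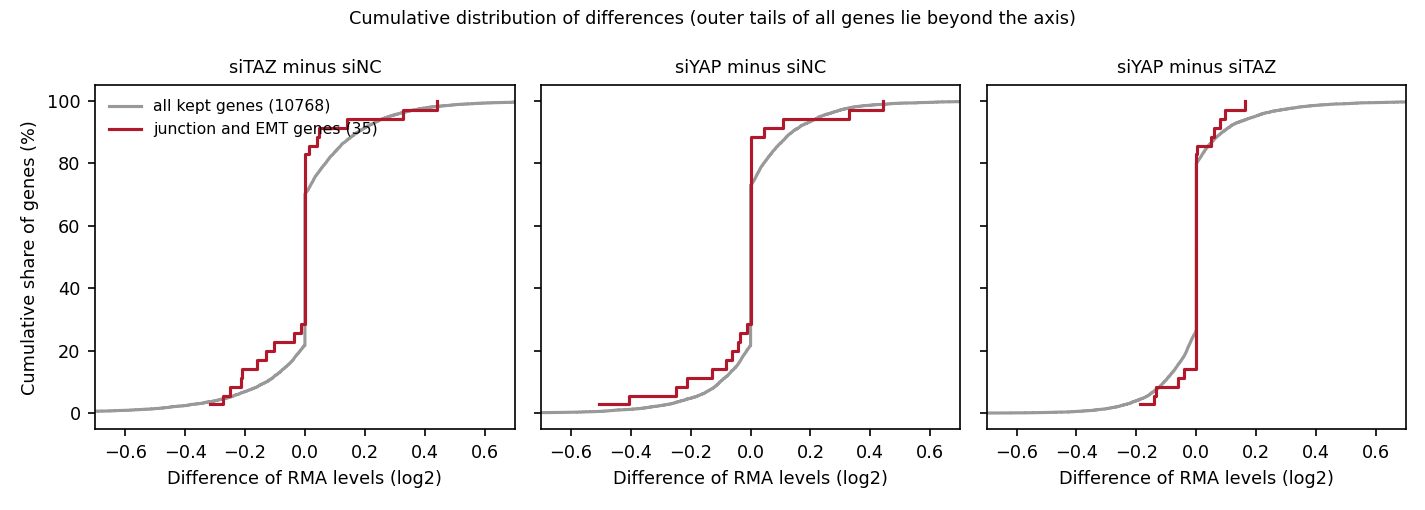
Cumulative share of genes (%, vertical axis) by difference of RMA levels (log2, horizontal axis) in the 3 comparisons, for the 35 kept junction and EMT genes and for all 10768 kept genes. The vertical step at 0 is the share of genes with identical values on both arrays, 54.3%, 60.0% and 68.6% of the junction and EMT genes from left to right, and all of them lie between -0.51 and 0.44.

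The last comparison set the knockdowns against each other. In siYAP against siTAZ, which does not subtract the control array, 0 of 35 members were lower and 0 higher at 1.5-fold, against 0.176% and 0.566% of all kept genes. At 1.2-fold the counts were also 0 and 0, against 2.15% and 3.19%. By any amount 5 members (14.3%) were lower and 6 (17.1%) higher in the siYAP array, against 26.2% and 19.9%, and 24 were identical. The most negative difference was that of CLDN1, at -0.19 (1.14-fold), followed by ZEB2 at -0.14 and DSC2 at -0.14. The most positive was that of SNAI2, at 0.16, followed by CRB3 at 0.095.

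Beyond these genes, a list of 133 other junction, polarity, keratin and EMT genes was drawn up from general knowledge. Earlier results of these data were known when it was drawn up, so its shares are a description. Of the 133 genes, 94 had a named probe set and 74 passed the filter. With siTAZ 2 (2.70%) were at least 1.5-fold lower and 1 (1.35%) higher, against 1.02% and 0.762% of all kept genes. With siYAP 1 (1.35%) was lower and 2 (2.70%) higher, against 0.381% and 0.52%; 1 of these 2 is GRHL3, which passed the filter through its knockdown levels. The lowest in both was PARD6B, a subunit of the PAR polarity complex, at 8.80 with siNC, 7.74 with siTAZ and 7.76 with siYAP. The highest in both was MARVELD1, a MARVEL-domain relative of MARVELD3, at 6.12, 6.98 and 7.16. AMOTL2, an angiomotin that binds YAP and TAZ, differed by -0.60 with siTAZ and by -0.38 with siYAP.

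Of 5 kept desmosome plaque genes, periplakin (PPL) was lower, at 6.30 with siNC and 5.85 in both knockdowns, while PKP3 and EVPL were identical on the 3 arrays. Among 11 other tight junction genes LSR, a protein of tricellular contacts, was 0.52 higher with siTAZ and 0.41 higher with siYAP. Among 13 polarity genes LLGL1 was 0.45 and 0.34 higher. Of 13 protocadherins and atypical cadherins, FAT1, a giant cadherin, differed by -0.45 and -0.42, CLSTN1 by 0.48 and 0.33, and 9 had their control value in the siTAZ array. Of the 14 genes of the catenin and nectin list 7 were kept: ARHGAP32, JUP, NECTIN1, NECTIN2, NECTIN3, NECTIN4 and VCL. None of them reached 1.2-fold. No catenin gene with a CTNN symbol was among them, so those catenins were not analysed here. PANX1, a pannexin channel related in form to connexins, differed by -0.12 with siTAZ and by -0.48 with siYAP. PPL, LSR, LLGL1, FAT1, CLSTN1 and PANX1 are examples chosen after their values were seen.

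**Figure D4:**
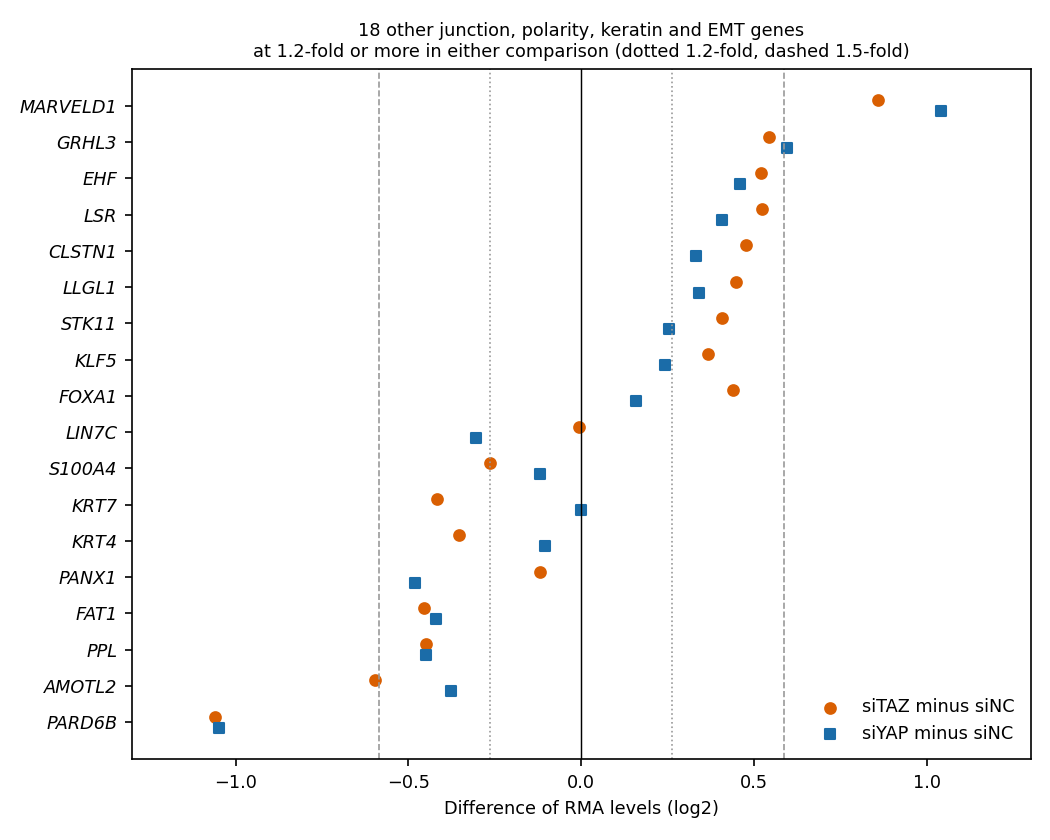
Difference of RMA levels from siNC (log2, horizontal axis) for the 18 kept genes of the wider junction, polarity, keratin and EMT lists at 1.2-fold or more in either comparison, with siTAZ as circles and siYAP as squares, 1 array each. The dotted lines are 1.2-fold and the dashed lines 1.5-fold, and PARD6B at -1.06 and -1.05 and MARVELD1 at 0.86 and 1.04 lie farthest from 0.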

How the data were processed

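The authors deposited 1 table of log2 RMA levels for 53617 probe sets on 3 arrays (siNC, siTAZ, siYAP). RMA is named in the submitters' processing notes; its version, annotation and genome build are not stated in the sources used here. A log2 scale was read from the range of the deposited values (0.96 to 13.54). RMA includes quantile normalization, so values are relative within an array. The platform annotation gave 16098 probe sets 1 symbol, 0 several and 37519 none; all 16098 matched RefSeq (GRCh38.p14) and 0 symbols changed.

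The probe set with the highest mean represented a gene. Differences of log2 values were computed in Python 3.11.15 with pandas 2.3.3, and the counting was tested on simulated data. With 1 array per group no test was run. The 2 antisense genes CLDN10-AS1 and DSG2-AS1 were not taken as members. Named were all members at 1.5-fold, the 3 with the largest difference of each role and comparison, 18 preset genes, and up to 4 genes at 1.5-fold of each wider list. Genes of the wider lists below 1.5-fold, such as the keratins, EHF, FOXA1 and KLF5, fall outside this rule. They were named with their values known. The members and lists were chosen with earlier results of these data known. The alternatives tried were a filter at 5.81 (the 75th percentile) or none, a median shift, a loess trend (span 0.4, statsmodels 0.14.6), repeated quantile normalization, averaging of a gene's probe sets, the mean of the other 2 arrays as reference, and leaving out genes identical in both knockdowns. The same alternatives for the 1.2-fold counts were added after seeing the data.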

Additional observations from a re-analysis of the deposited data

Results flagged for a closer look

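Of the kept members, none was on opposite sides of the control in the 2 knockdowns. In the wider lists, the plakoglobin gene JUP, which links both desmosomes and adherens junctions to the cytoskeleton, was lower with siTAZ (-0.047) and higher with siYAP (0.090). The polarity gene LIN7A was higher with siTAZ (0.061) and lower with siYAP (-0.11). They were picked out because the knockdowns lay on opposite sides of the control; with 1 array each, the difference was not tested.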

How the results depend on the processing

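Under the 8 alternatives the 1.5-fold counts of 0 held in all 3 comparisons. Of 120 summary values, 111 stayed the same within the spread of siYAP minus siTAZ (SD 0.13 over kept genes) or 1.5 times the count. Many of these outcomes were fixed in advance. The median shift was 0 in each comparison, and among members only VIM had several probe sets to average. The stricter filter and the leaving out of genes cannot raise a count. The median of the members moved to -0.13 for siTAZ minus siNC when genes with identical knockdown values were left out, which kept 11 members. For all genes left in by this setting that median was 0. The counts at 1.2-fold higher then were 0 for both knockdowns, since VIM and MARVELD3 are among the genes removed. With a new quantile normalization TJP1 passed 1.2-fold, which made the lower counts 3 and 3. The higher counts were 1 and 1 with the stricter filter, which removes MARVELD3. With the mean of the other 2 arrays as reference, the 1.2-fold higher counts were 0 and 0 and the siTAZ lower count was 0. In place of siYAP minus siTAZ, siYAP against the mean of siNC and siTAZ gave 2 lower members. Under this reference 12 values of single genes moved, and 0 values at 1.2-fold changed sign under any alternative. No paired analysis was possible because each group has 1 array. A single control array limits every comparison with siNC, and dim probe sets left 15 of 24 claudins and 4 of 8 desmosomal genes.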

Other observations

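Keratins form the filaments that desmosomes hold. Of 8 kept keratin genes, 4 (50%) were lower with siTAZ, 0 higher and 4 (50%) identical, against 21.7%, 29.7% and 48.5% of all kept genes. KRT7, a keratin of simple epithelia, was at 6.51 with siNC and siYAP and at 6.10 with siTAZ. KRT80 was at 7.40, 7.17 and 7.22, and KRT18, the main keratin partner of KRT8, at 11.6, 11.4 and 11.6. KRT4 differed by -0.35 with siTAZ and by -0.11 with siYAP, at a level near 5.05 in the control. With siYAP 3 keratins were lower, 2 higher and 3 identical, against 21.7%, 27.0% and 51.3%.

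Of 9 kept epithelial transcription factor genes, 4 were at least 1.2-fold higher with siTAZ and 2 with siYAP, against 5.62% and 4.05% of all kept genes, and 0 were lower by that much, against 4.89% and 3.15%. Without GRHL3 the counts were 3 and 1 of 8. The median of the list was 0 in both comparisons. EHF, an ETS factor of epithelia, was at 8.31 with siNC, 8.83 with siTAZ and 8.77 with siYAP. FOXA1, a pioneer factor, was 0.44 higher with siTAZ and 0.16 higher with siYAP, and KLF5 0.37 and 0.24 higher. GRHL3, a relative of GRHL2, was 0.54 and 0.60 higher, from a control level of 3.99 below the filter, which it passed through its knockdown levels (4.53 and 4.58). Of the rest of the list, FOXA2 differed by -0.0070 in both and GRHL1 by -0.12 with siYAP alone. KLF4, OVOL1 and OVOL2 were identical on the 3 arrays. EHF, FOXA1 and KLF5 are examples chosen after their values were seen. Each difference in this list is between single arrays and was not tested.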
